A study of Mus musculus with 416 samples.

Results

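Drd1 and Drd2 encode the dopamine receptors that mark the main classes of striatal output neuron, and the ratio of their counts was used here to set libraries of the same tissue against each other. For each of 416 RNA-seq libraries the ratio was log2((Drd1 count + 1)/(Drd2 count + 1)). Libraries were chosen by their measured Drd1 and Drd2 counts: within each breeding generation, the 25% of libraries with the highest ratio (high-ratio libraries) were compared with the 25% with the lowest (low-ratio libraries). Generations 21, 22 and 23 gave 37, 29 and 36 libraries to each group, and 76, 61 and 75 libraries lay between. All animals were drug-naïve mice of the J:DO stock, Diversity Outbred animals that each carry their own mixture of founder genomes, and both groups hold females and males. Age is not given in the labels used here, and no genotype label or treatment separates the groups. The founder alleles of single animals were not used here. The groups were set by measured counts, so a difference in another gene is an association with the ratio and not the effect of a treatment.

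The striatum receives cortical and thalamic input and dopamine from the midbrain. Its spiny projection neurons fall into a direct-pathway class, which carries the D1 receptor, is coupled to stimulatory G proteins and expresses the neuropeptides substance P and dynorphin, and an indirect-pathway class, which carries the D2 receptor, is coupled to inhibitory G proteins and expresses enkephalin and an adenosine receptor encoded by Adora2a. Drd2 is also expressed by cholinergic interneurons and on dopamine terminals. In bulk tissue, a smaller number of cells of a class and less RNA per cell of that class cannot be told apart.

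Total counts ran from 20331737 to 77458200 per library, with medians of 43080078.5 in high-ratio and 43591788 in low-ratio libraries. By total count or by correlation with the others, 20 libraries stood apart, of which 8 were high-ratio, 5 low-ratio and 7 between. The most extreme was the low-ratio library labelled female, generation 21, replicate 34: its Drd1 and Drd2 levels were each 1.54 CPM (read counts per fixed number of counts in the library, the total being adjusted by TMM factors), its ratio was 0, and its median correlation with the other libraries was 0.838. In that library Adora2a was at 1.41 CPM and Tac1 at 0.369 CPM, so the defining markers of both spiny classes were near 0 in a library labelled striatum. In 29 libraries (11 high-ratio, 6 low-ratio, 12 between) the level of Xist went against the sex label. Results are therefore given with all libraries and again without the 20.

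The promoters of the receptors are shown because they are the genes whose transcripts set the groups. Each window runs from 250 bases before to 50 bases after the RefSeq start on GRCm38.p6, 5′ to 3′ on the gene's strand, with matches to GGGCGG or its reverse complement CCGCCC (the core of the GC box that Sp-family factors bind) in capitals.
Drd1 (chr13:54055609-54055908, minus strand): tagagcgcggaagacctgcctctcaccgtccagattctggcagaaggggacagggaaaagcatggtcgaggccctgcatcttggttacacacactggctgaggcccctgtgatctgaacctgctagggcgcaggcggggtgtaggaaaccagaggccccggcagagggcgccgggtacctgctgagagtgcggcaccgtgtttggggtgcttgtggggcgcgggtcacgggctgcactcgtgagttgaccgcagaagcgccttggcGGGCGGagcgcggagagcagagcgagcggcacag
Drd2 (chr9:49340153-49340452, plus strand): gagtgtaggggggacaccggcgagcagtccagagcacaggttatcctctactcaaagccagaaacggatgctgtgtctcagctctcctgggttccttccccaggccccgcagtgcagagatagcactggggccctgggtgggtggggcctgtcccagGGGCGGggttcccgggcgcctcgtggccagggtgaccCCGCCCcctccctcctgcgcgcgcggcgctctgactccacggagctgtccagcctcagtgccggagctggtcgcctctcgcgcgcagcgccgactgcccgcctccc
The Drd1 window is the first of 2 that RefSeq lists and holds 1 match, with 65.7% of its bases G or C. The Drd2 window holds 2 matches and is 70.3% G or C. Of 32851 windows of the same length, 35.7% hold a match and the median GC content is 52.7%, so both receptor windows are richer in G and C than the middle of all windows. The transcripts differ as well: the longest Drd1 transcript (3576 bases) is 46% G or C, and the longest Drd2 transcript (2547 bases) is 55%.

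Drd2 differed more between the groups than Drd1. These values chose the groups and are given as a description. In high-ratio libraries Drd1 ran from 59.7 to 405.7 CPM with a median of 316.6, and in low-ratio libraries from 1.54 to 365.5 CPM with a median of 295.9. Drd2 ran from 17 to 143.7 CPM with a median of 111.6 in high-ratio libraries and from 1.54 to 190.9 CPM with a median of 133.6 in low-ratio ones. The ranges of both receptors overlapped across most of their span, so neither receptor alone separated the groups.

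**Figure D1:**
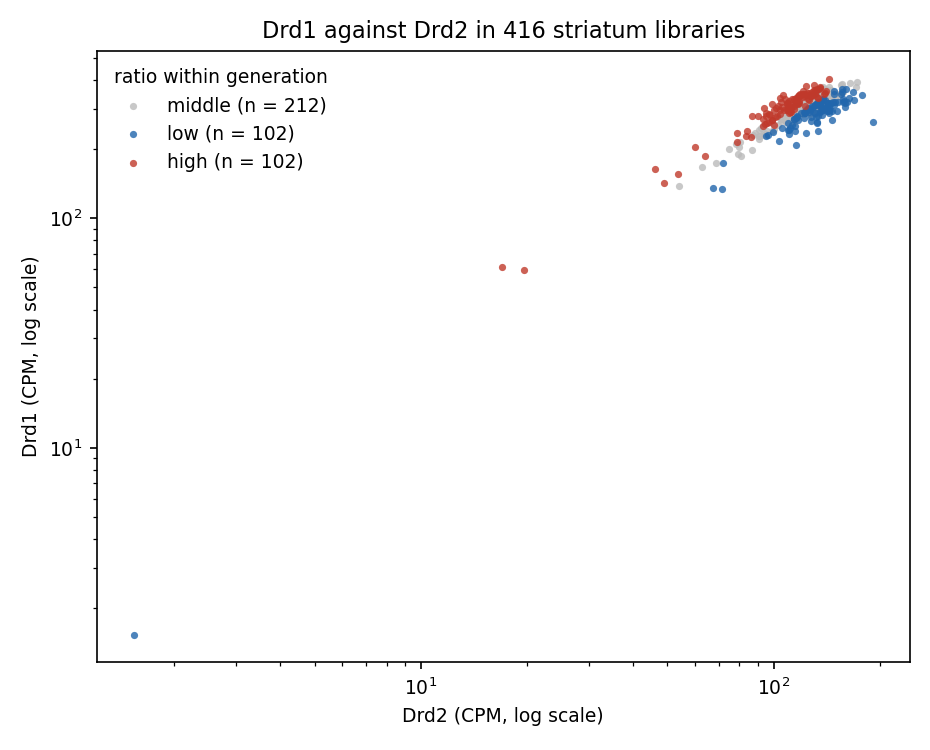
Drd1 (vertical axis) against Drd2 (horizontal axis), both in CPM on log scales, with 1 point per library coloured by ratio group. The high-ratio and low-ratio libraries form adjoining bands on either side of the libraries in between, and the low-ratio library at 1.54 CPM for both receptors lies far from the rest.

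The 3 generations sat at different ratios. The median ratio of the high group was 1.426 in generation 21, 1.541 in generation 22 and 1.486 in generation 23, and that of the low group was 1.035, 1.203 and 1.235. On the linear scale, generation 21 had medians of 2.69 Drd1 counts per Drd2 count in the high group and 2.05 in the low group, and generation 23 had 2.8 and 2.35. The gap was thus widest in generation 21. At the edges, the last high-ratio library of generation 22 lay at 1.438 and the first one outside at 1.436, and the last low-ratio library lay at 1.27 and the first outside at 1.273, so the groups are ends of one continuous spread. In generation 21 these edges were 1.319 and 1.319 at the top and 1.122 and 1.124 at the bottom, and in generation 23 they were 1.435 and 1.435 at the top and 1.27 and 1.271 at the bottom.

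The SD of the ratio over all 416 libraries was 0.175, and without the 20 libraries that stood apart it was 0.152. The Drd1 and Drd2 counts (medians of 13141 and 5335) give a median counting SD of 0.0234 per library, which covers counting error only. These values too are a description of what chose the groups.

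Labelled sex did not separate the groups at this size. High-ratio libraries were 51 female and 51 male, and low-ratio libraries 54 female and 48 male (Fisher's exact test, two-sided, p = 0.779, with an odds ratio of 0.889 and a 95% confidence interval from 0.495 up to 1.6). The log2 total count differed on average by -0.0478, high-ratio minus low-ratio (permutation p within generation = 0.128, adjusted over 3 library measures 0.192), and the mitochondrial share was 4.63% in high-ratio against 4.58% in low-ratio libraries (permutation p = 0.471, adjusted 0.471).

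A measure of library composition did move with the ratio. For each library, the slope of log2 CPM on transcript GC content across genes, relative to the average library, was computed without Drd1 and Drd2, in log2 units per 10 percentage points of GC. This GC slope averaged -0.0217 in high-ratio and 0.0312 in low-ratio libraries (permutation p = 0.00001, the smallest that 100000 permutations can give, adjusted 0.00003). Its median in generation 21 was 0.00996 in the high group and 0.0891 in the low group. In generation 22 the medians were -0.0351 and -0.0261, and in generation 23 they were -0.0451 and -0.0332. Low-ratio libraries of generation 21 thus carried relatively more reads of GC-rich transcripts, in the direction of the GC content of Drd2 against Drd1. Its part in each result below was not tested apart from fits that hold it as a covariate, which are given beside the results.

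**Figure D2:**
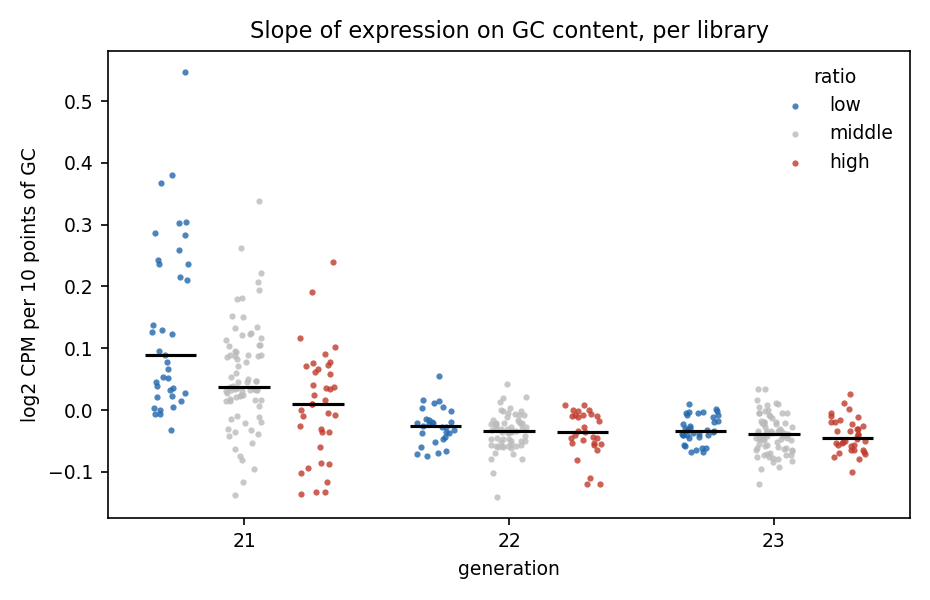
Slope of expression on transcript GC content (log2 CPM per 10 percentage points of GC), 1 point per library, by generation and ratio group, with black bars at the medians. The spread is widest in generation 21, where the low-ratio median of 0.0891 lies above the high-ratio median of 0.00996.

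Many genes differed slightly between high-ratio and low-ratio libraries. Of 22958 genes tested besides the receptors, 3501 (15.2%) passed an adjusted p of 0.05 in edgeR's quasi-likelihood test with generation as covariate. In high-ratio libraries 1726 (7.52%) were higher and 1775 (7.73%) lower. The differences were small: the median absolute log2 difference of called genes was 0.084, and 0.919% of genes tested were called and passed a fold of 1.2. Without the 20 libraries 2941 genes (12.8%) were called, 6.15% of genes tested higher and 6.66% lower. A fit with the GC slope as a further covariate called 948 (4.13%), 2.06% higher and 2.07% lower. Both changes together left 1.18% of genes called, 0.388% higher and 0.793% lower. These shares are the background for the gene groups below.

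Genes of the indirect-pathway neurons were lower in high-ratio libraries. Of the 10 measured genes known to be higher in D2 than in D1 spiny neurons, 4 fell and 0 rose, against 7.73% and 7.52% of all genes. The list's median log2 difference was -0.109 against 0.003 over all genes tested. All 10 estimates lay below 0. The list was chosen with earlier results of these data known, and Gpr52 was not tested. Of 5 genes of cholinergic interneurons, which also express Drd2, 1 was called lower and 0 higher. All 5 lay below 0 (median -0.142). With the GC slope held and without the 20 libraries 0 of the 5 were called by edgeR, and all 5 lay below 0 (median -0.089).

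Adora2a, which encodes the adenosine receptor of indirect-pathway neurons, had the largest difference of the list. Its level in high-ratio libraries ran from 30.05 to 255.9 CPM with a median of 181.6, and in low-ratio libraries from 1.41 to 344.6 CPM with a median of 216.2. The ranges overlapped, with the low-ratio median higher in each generation: 239.5 against 193.6 CPM in generation 21, 231.04 against 181.7 in generation 22 and 197.5 against 167.9 in generation 23. The log2 difference was -0.27 (SE 0.062, adjusted p = 0.000811), and it was -0.23 without the 20 libraries (adjusted p = 8.88e-08) and -0.21 with the GC slope as covariate as well (SE 0.034, adjusted p = 2.37e-05). Adora2a therefore kept its direction and its call in each of these fits.

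Grik3, a kainate-type glutamate receptor subunit, ran from 39.6 to 171.6 CPM (median 131.3) in high-ratio libraries and from 49.5 to 182.9 CPM (median 146.4) in low-ratio ones. Its log2 difference was -0.15 (SE 0.029, adjusted p = 0.000119), and -0.12 with the GC slope and without the 20 libraries (adjusted p = 5.79e-05). Grik3 was the only one of the 10 called in a generation by itself, with -0.21 in generation 21 (adjusted p = 0.00256), against -0.14 in generation 22 (0.445) and -0.08 in generation 23 (0.479). Generation 21 by itself called 9.34% of genes tested higher and 10.1% lower, and generations 22 and 23 each called 0.00871% higher and 0.00871% lower. Its difference between generations was not significant (interaction adjusted p = 0.374).

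Gpr6, an orphan receptor enriched in indirect-pathway neurons, had medians of 51.7 CPM (8.46 to 83.2) in high-ratio and 58.3 CPM (0.143 to 101.7) in low-ratio libraries. Its log2 difference was -0.20 (SE 0.065, adjusted p = 0.0199) and it was -0.15 (adjusted p = 0.0306) with the GC slope and without the 20 libraries. In least squares on log2 CPM, leaving out replicate 34 of the females of generation 21 moved Gpr6 from -0.16 to -0.24. Ptprm, a receptor-type tyrosine phosphatase, was lower by the smallest amount of the called members, -0.07 (SE 0.022, adjusted p = 0.0118), and lost its call with the GC slope and without the 20 libraries (-0.04, adjusted p = 0.295).

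Penk, the precursor of enkephalin, was the most abundant of these genes. It ran from 127.1 to 1068 CPM with a median of 743.4 in high-ratio libraries and from 3.67 to 1178 CPM with a median of 799.3 in low-ratio ones. Its log2 difference of -0.15 (SE 0.063) missed the threshold (adjusted p = 0.105). Without replicate 34 of the females of generation 21 Penk moved from -0.11 to -0.19 in least squares on log2 CPM. Without the 20 libraries Penk passed at -0.11 (adjusted p = 0.0157), as did Sp9, a transcription factor of developing indirect-pathway neurons, at -0.09 (adjusted p = 0.0161). That brought the count to 6 of 10. Once the GC slope was held as well the count was 4 of 10: Adora2a, Gpr6, Grik3 and Sp9 (-0.10, adjusted p = 0.0486), while Penk stood at -0.10 (adjusted p = 0.126). The remaining members Upb1, Gucy1a1, Syndig1l and Sh3rf2 lay between -0.11 and -0.01 and passed in none of these fits.

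**Figure D3:**
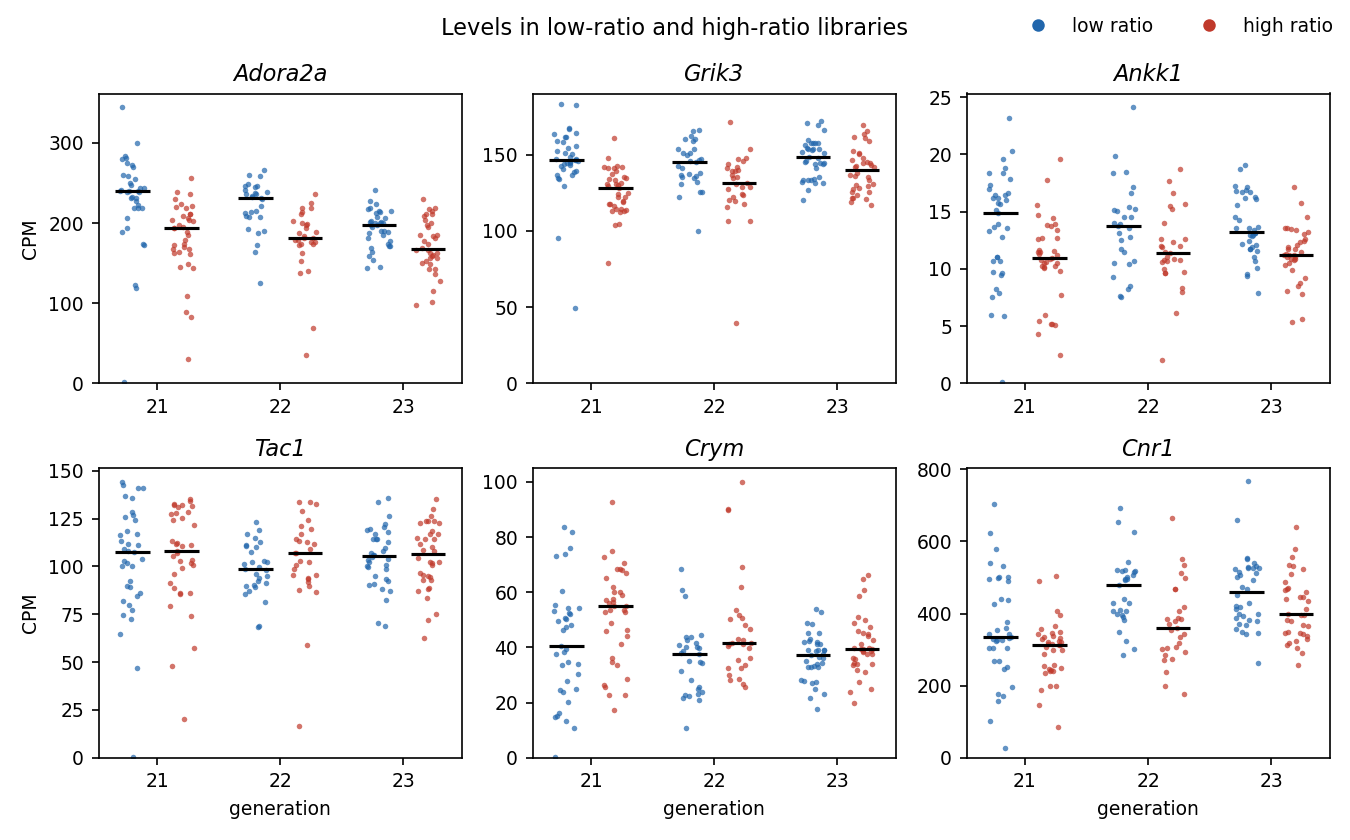
Levels in CPM of 6 genes in low-ratio (blue) and high-ratio (red) libraries of generations 21, 22 and 23, 1 point per library, with black bars at the medians. Adora2a, Grik3 and Ankk1 have lower medians in the high-ratio group of each generation, Tac1 medians lie close together, and the clouds of points overlap in all 6 panels.

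Direct-pathway genes showed no matching rise in the same fit. Of 13 genes known to be higher in D1 than in D2 spiny neurons, 0 passed edgeR's test, 1 had an unadjusted p under 0.05, and DESeq2 and limma voom called 0 each. The list's median log2 difference was 0.024, with 7 members above 0 and 6 below. Tac1, the precursor of substance P, ran from 16.8 to 135.4 CPM (median 107.1) in high-ratio libraries and from 0.369 to 144.2 CPM (median 102.9) in low-ratio ones, with a log2 difference of 0.03 (SE 0.062, adjusted p = 0.802). The groups overlapped almost fully for this gene. Leaving out replicate 34 of the females of generation 21 moved Tac1 from 0.07 to -0.01 in least squares on log2 CPM.

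Pdyn, the precursor of dynorphin, was the member with the largest difference. Its level ran from 21.1 to 115.8 CPM (median 69.3) in high-ratio and from 0.307 to 121.9 CPM (median 65.6) in low-ratio libraries. The log2 difference was 0.14 (SE 0.062, adjusted p = 0.114), and it passed without the 20 libraries at 0.16 (adjusted p = 0.00441) and with the GC slope held as well at 0.19 (SE 0.045, adjusted p = 0.0162). Its median was higher in the high-ratio group of each generation: 78.8 against 70.7 CPM, 69.3 against 62.7 and 65.4 against 61.8. In those fits Pdyn was the 1 direct-pathway gene called. Leaving out replicate 34 of the females of generation 21 moved Pdyn from 0.19 to 0.11 in least squares on log2 CPM. Isl1, a transcription factor of the direct-pathway lineage, differed by 0.03 and Chrm4, the M4 muscarinic receptor, by -0.07, and Foxp2, Ebf1, Sfxn1, Ddit4l, Eya1, Slc35d3, Zfp521, Plxnd1 and Asic4 lay between -0.08 and 0.05.

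**Figure D4:**
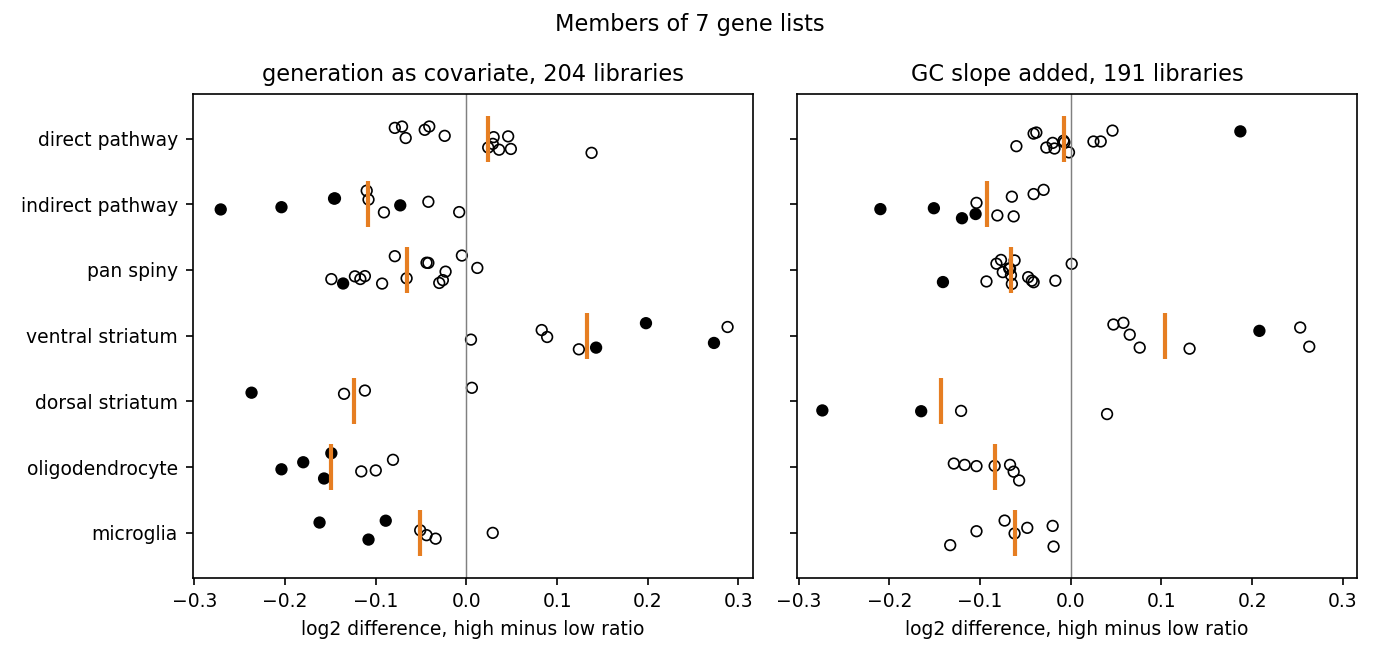
Log2 difference, high-ratio minus low-ratio libraries, of each measured member of 7 gene lists, with filled points passing an adjusted p of 0.05 and orange bars at the list medians. The left panel has generation as covariate with all high-ratio and low-ratio libraries, and the right panel adds the GC slope and leaves out those that stood apart: indirect-pathway members lie below 0 in both, and direct-pathway members scatter around 0 apart from Pdyn.

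Of 15 genes shared by both spiny classes, 1 was called lower in the fit of all libraries, a share near the 7.73% of all genes called lower. It was Scn4b, a sodium channel beta subunit, with medians of 905 against 989 CPM and a log2 difference of -0.14 (SE 0.047, adjusted p = 0.034). The list's median was -0.066, with 14 of 15 below 0 against 48% of all genes tested, and in generation 21 8 of 15 lay below 0. Without the 20 libraries 5 were lower (against 6.66% of all genes), among them the phosphodiesterase Pde1b (-0.09, adjusted p = 0.0183) and the adenylyl cyclase Adcy5 (-0.08, 0.0439). When the GC slope was held too, Scn4b was not called (-0.08, adjusted p = 0.269). The summed level of the 15 genes had a median of 12000 CPM in high-ratio libraries (2930 to 14300) and 12700 CPM in low-ratio ones (1320 to 14600).

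When the mean log2 level of those 15 genes was held as a covariate, the called members of the 2 pathways lay on opposite sides. Without the 20 libraries, 5 of 13 direct-pathway genes were higher and 0 lower, and 4 of 10 indirect-pathway genes were lower and 0 higher, in a fit that called 8.27% of all genes higher and 8.49% lower. Tac1 was higher by 0.11 (SE 0.024, adjusted p = 0.000519), Pdyn by 0.18 (adjusted p = 0.000882), Isl1 by 0.11 (0.00477), Foxp2 by 0.08 (0.0026) and Ebf1 by 0.08 (0.0129). Adora2a was lower by 0.18 on the log2 scale, with a fitted difference of -0.18 (SE 0.019, adjusted p = 1.44e-14), Grik3 stood at -0.17 (3e-12), Gpr6 at -0.11 (0.000739) and Penk at -0.06 (0.0395). When the libraries that stood apart were kept in, the counts were 4 of 13 higher and 4 of 10 lower (10.3% and 10.7% of all genes), with Ptprm in place of Penk and without Isl1. Over the whole lists signs were mixed. Without the 20 libraries, 10 of 13 direct-pathway genes lay above 0 (median 0.057). Of the 10 indirect-pathway genes 8 lay below (median -0.046), against 49.1% of all genes. With the 20 kept in, 11 of 13 lay above (median 0.034) and 7 of 10 below (median -0.05). Leaving out libraries in this fit was chosen after the data were seen.

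The libraries between the 2 groups, which the comparison did not use, were fitted with the ratio as a continuous term, scaled to the mean gap of 0.38 between the high and low groups. All 10 indirect-pathway genes had estimates below 0 (median -0.325), against 50% of all genes tested, and the 13 direct-pathway genes had 6 above and 7 below 0 (median -0.003). The estimates were imprecise, since these libraries span a narrow range of ratio: Penk stood at -0.46 (SE 0.12, adjusted p = 0.0811), Adora2a at -0.37 (SE 0.12, adjusted p = 0.146), Ptprm at -0.23 (SE 0.06, adjusted p = 0.0736) and Gpr6 at -0.38 (SE 0.14, adjusted p = 0.222). None of the 10 was called by edgeR or by limma voom, and 7 had an unadjusted p under 0.05 in edgeR. Without the libraries that stood apart, 9 of the 10 lay below 0 (median -0.246) and 2 were called, Grik3 (-0.27, adjusted p = 0.0357) and Ptprm (-0.21, 0.0405), in a fit that called 0.815% of all genes, 0.396% higher and 0.418% lower. Other lists moved with the ratio in the middle libraries as well. All 9 genes of cortical excitatory neurons lay above 0 (median 1.799, 6 of 9 at an unadjusted p under 0.05), all 6 choroid plexus genes lay below 0 (median -2.914, 4 of 6), and 14 of the 15 genes shared by the spiny classes lay below 0 (median -0.116, 2 of 15), with 0 called by edgeR or limma voom in each list. Without the libraries that stood apart 8 of 9 cortical genes lay above 0 (median 0.784), 6 of 6 choroid plexus genes below (median -5.062) and 8 of 15 shared spiny genes below (median -0.016). The part of these tissues in the indirect-pathway estimates was not tested. Of the 5 cholinergic interneuron genes 4 lay below 0 in the middle libraries (median -0.048). Without the libraries that stood apart 1 of the 5 lay below 0 (median 0.102).

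Across all genes, the middle libraries called 20 (0.0871%), 16 higher (0.0697%) and 4 lower (0.0174%) with a rising ratio. A fit that also held the GC slope called 1 (0.00436%). The 4 lower genes were Ptprf, Txndc5, Gm27000 and Gm15459, named here because they are few. Of the 1726 genes higher in high-ratio libraries 89.9% had the same sign in the middle libraries, against 50% of all genes tested. Of the 1775 lower ones 82.2% did, against 50%. The genes called with the GC slope held and without the 20 libraries were compared with the middle fit that held the GC slope. There 56.2% of the 89 higher genes had the same sign, near the 48% of all genes tested. Of the lower ones 73.1% did, against 52%.

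Ankk1, a kinase gene and the neighbour of Drd2 in gene order on chromosome 9, was lower where Drd2 was lower. In high-ratio libraries it ran from 2.07 to 19.6 CPM with a median of 11.2, and in low-ratio libraries from 0.102 to 24.1 CPM with a median of 13.6. The medians were 10.9 against 14.9 CPM in generation 21, 11.3 against 13.8 in generation 22 and 11.2 against 13.2 in generation 23, so the low-ratio group was higher in each. The log2 difference was -0.28 (SE 0.071, adjusted p = 0.00219), and it was -0.30 (SE 0.056, adjusted p = 0.000495) with the GC slope held and without the 20 libraries. In the middle libraries it was -0.04 (SE 0.19, adjusted p = 0.954). In GENCODE M21 the genes lie on opposite strands and end toward each other with 7016 bases between them. The kit was stranded per the labels, but whether counting used the strand is not given in the sources used here, so reads that run past the end of Drd2 cannot be told apart from those of Ankk1.

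The genes near each receptor were also counted. Of the 100 tested genes nearest Drd2 in gene order 19 were called (19%), and of the 100 nearest Drd1 21 were called (21%), against 15.2% of all genes. A fit with the GC slope alone called 6 of the 100 around each receptor, against 4.13% of all genes. In edgeR's fit with the GC slope and without the 20 libraries, 2 of the 100 around Drd2 were called, Ankk1 and the cell adhesion gene Cadm1. Of the 100 around Drd1 0 were called, against 1.18% of all genes. At an unadjusted p under 0.05 that fit had 15 of the genes around Drd2 and 17 around Drd1. Over all genes tested it had 3145 of 22958. Cadm1 was higher in high-ratio libraries, with medians of 131.4 against 119.7 CPM and a log2 difference of 0.20 (SE 0.036, adjusted p = 2.73e-05), or 0.12 with both changes (adjusted p = 0.0397). On the other side of Drd2, Tmprss5 stood at -0.17 (adjusted p = 0.0926), and beyond Ankk1 Ttc12 stood at -0.08 (0.243). Sfxn1, next to Drd1, differed by 0.04 (adjusted p = 0.431).

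Some genes known to be higher in the ventral striatum were higher in high-ratio libraries, and a marker of the dorsal striatum was lower. Of 8 ventral genes 3 rose and 0 fell (against 7.52% and 7.73% of all genes), with a list median of 0.134. In generations 21, 22 and 23 alone the list median was 0.201, 0.167 and 0.019. Crym, a thyroid-hormone-binding protein, ran from 17.3 to 100 CPM (median 42.9) in high-ratio and from 0.451 to 83.5 CPM (median 38.3) in low-ratio libraries, with a log2 difference of 0.27 (SE 0.081, adjusted p = 0.0115). Zcchc12, a transcriptional co-activator, had medians of 52.4 against 47 CPM and a difference of 0.20 (SE 0.045, adjusted p = 0.000899). Hap1, the huntingtin-associated protein, had medians of 68.8 against 63.4 CPM and a difference of 0.14 (SE 0.051, adjusted p = 0.0399). Zcchc12 was the 1 member called with the GC slope held and without the 20 libraries (0.21, adjusted p = 0.0023), where Crym stood at 0.25 (0.0761) and Hap1 at 0.13 (0.154).

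Cnr1, the CB1 cannabinoid receptor, which is graded from dorsolateral to ventral striatum, ran from 85.2 to 665.7 CPM (median 344.95) in high-ratio and from 27.9 to 766 CPM (median 424.3) in low-ratio libraries. Its log2 difference was -0.24 (SE 0.062, adjusted p = 0.00393), and the low-ratio median was higher in each generation: 336.1 against 313.3 CPM, 479.7 against 360.95 and 459.6 against 398.2. After both changes Cnr1 stood at -0.27 (SE 0.054, adjusted p = 0.00125) and Gpr155, another dorsal marker, at -0.17 (adjusted p = 0.00339), so 2 of 4 dorsal genes were lower. Coch, a dorsal marker too, stood at -0.13 (adjusted p = 0.0605) in the fit of all high-ratio and low-ratio libraries. Reln, the remaining dorsal gene, stood at 0.006 (adjusted p = 0.963) in that fit and at 0.04 (0.749) after both changes. In a fit with the mean log2 level of the 8 ventral genes as covariate, the called indirect-pathway genes stood at -0.30 for Adora2a (adjusted p = 0.000419), -0.25 for Gpr6 (0.0037), -0.14 for Grik3 (0.000553) and -0.06 for Ptprm (0.04). In the middle libraries 4 of the 8 ventral genes lay above 0 and 4 below, and 1 of the 4 dorsal genes lay above and 3 below. Without the libraries that stood apart, 6 of 8 ventral genes lay above 0 there (median 0.105). All 4 dorsal genes did as well (median 0.091), the opposite sign to Cnr1 in the comparison of the groups.

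Among markers of striatal compartments, 2 of 4 matrix genes were higher (against 7.52% of all genes), and 1 of 5 striosome genes and 1 of 5 genes of the eccentric spiny class were lower (against 7.73%). Calb1, the calcium-binding protein calbindin of the matrix, was higher by 0.16 (SE 0.058, adjusted p = 0.0472), with its difference in generation 21 (0.40, adjusted p = 0.00852) and values of 0.04 and 0.00 in generations 22 and 23. Gda, guanine deaminase, another matrix gene, was higher by 0.18 (SE 0.051, adjusted p = 0.00812). Neither was called with the GC slope held and without the 20 libraries (0.10 and 0.08, adjusted p = 0.436 and 0.221). Kremen1, a striosome gene, was lower, at -0.16 on the log2 scale (SE 0.031, adjusted p = 0.000158), and stayed called at -0.12 (adjusted p = 0.0331). Otof, a marker of the eccentric spiny neuron class, stood at -0.23 (SE 0.07, adjusted p = 0.0114) and at -0.24 (adjusted p = 0.0442) with both changes.

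Some genes that act downstream of dopamine receptors were called, in a fit that called 7.52% of all genes higher and 7.73% lower. Of the 13 cAMP signalling genes 1 was called each way, near those shares. Without the 20 libraries 1 of the 13 was called higher and 4 lower, against 6.15% and 6.66% of all genes. Among 8 regulators of G-protein signalling, Rgs4 (medians of 434 against 490 CPM, log2 difference -0.18, SE 0.043, adjusted p = 0.000977) and Rgs8 (202.8 against 219.5 CPM, -0.11, SE 0.026, 0.00143) were lower in high-ratio libraries, and with the GC slope held and without the 20 libraries Rgs4 alone was called (-0.14, adjusted p = 0.0429). Among 13 genes of cAMP signalling, Gnai1, an inhibitory G-protein subunit, was higher (77.7 against 68.7 CPM, 0.17, SE 0.036, adjusted p = 0.000254) and Ppp1ca, a catalytic subunit of protein phosphatase-1, was lower (180.4 against 190.7 CPM, -0.10, SE 0.03, 0.0115). With both changes 0 of the 13 were called by edgeR, with Gnai1 at 0.12 (adjusted p = 0.054) and Ppp1ca at -0.04 (0.36). Drd3 stood at 0.29 (SE 0.12, adjusted p = 0.086) and Drd5 at 0.06 (SE 0.061, adjusted p = 0.577), with medians near 0.914 and 1.33 CPM in high-ratio libraries. Of 6 measured genes of dopamine terminals, 12 immediate early genes, 8 glucocorticoid-responsive genes and 7 heat shock genes, 0 were called by edgeR, DESeq2 or limma voom. At an unadjusted p under 0.05 edgeR had 1, 0, 0 and 1 of them.

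Some glial and vascular markers were lower in high-ratio libraries, in a fit that called 7.73% of all genes lower and 7.52% higher. Of 7 oligodendrocyte genes 4 fell and 0 rose (list median -0.149). Myelin basic protein, Mbp, ran from 789.7 to 4331 CPM (median 1552) in high-ratio and from 1005 to 3513 CPM (median 1764) in low-ratio libraries, with a log2 difference of -0.18 (SE 0.046, adjusted p = 0.00274), and Mag, Cnp and Mog, also genes of myelin, stood at -0.20, -0.16 and -0.15. The same 4 genes were called without the 20 libraries, with adjusted p from 0.00167 to 0.0297. Once the GC slope was held too, 0 of 7 were called by edgeR (list median -0.084), 3 had an unadjusted p under 0.05, and in the middle libraries 6 of 7 lay above 0. Of 7 microglial genes 3 fell: C1qa (-0.16, adjusted p = 0.000577), Csf1r (-0.09, 0.00277) and Tmem119 (-0.11, 0.0185). Of 6 astrocyte genes 2 fell, Gfap and Aldh1l1 (-0.24 and -0.10, adjusted p = 0.0423 and 0.0138). Of 6 endothelial genes 1 fell, Cldn5 (-0.18, 0.000751), and of 5 red blood cell genes 1, the haemoglobin gene Hbb-bt (-0.27, 0.0194). The microglial, astrocyte and endothelial lists each had 1 member above 0. A fit with the GC slope alone called C1qa (-0.13, adjusted p = 0.0317), Cldn5 (-0.14, 0.0399) and the endothelial receptor Flt1 (-0.06, 0.0434), which is named after its value was seen. None of the 7 genes that fell in these 4 lists was called with both changes, where C1qa had the smallest adjusted p (0.0558). Whether cell makeup or composition of the libraries lies behind them was not tested.

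Markers of tissue next to the striatum were high in a few libraries of either group. The summed level of 9 cortical excitatory markers ran from 71.9 to 1050 CPM in high-ratio and from 72.2 to 820 CPM in low-ratio libraries, and 0 of the 9 were called by edgeR, DESeq2 or limma voom (median log2 difference 0.09, 1 at an unadjusted p under 0.05 in edgeR). The summed level of 5 thalamic markers had medians of 28.8 and 29.9 CPM in high-ratio and low-ratio libraries and reached 1010 and 2200 CPM. Prkcd, a protein kinase C abundant in thalamic relay neurons, had medians of 4.99 and 5.25 CPM but a highest value of 1360 CPM among low-ratio libraries, and its log2 difference of -0.80 (SE 0.25, adjusted p = 0.0174) became -0.15 (adjusted p = 0.513) without the 20 libraries. Ramp3, a receptor-activity-modifying protein, went from -0.45 (adjusted p = 0.047) to 0.03 (adjusted p = 0.827). Leaving out replicate 34 of the females of generation 21 alone moved Prkcd from -0.12 to -0.05 and Ramp3 from -0.07 to -0.02 in least squares on log2 CPM. The summed level of 6 choroid plexus genes ran from 11 to 6860 CPM in high-ratio and from 8.44 to 15300 CPM in low-ratio libraries, with medians of 27.2 and 28.8 CPM, and 0 of the 6 were called by edgeR, DESeq2 or limma voom, with 0 at an unadjusted p under 0.05. All 6 estimates lay above 0 (median 0.516), the opposite sign to the middle libraries (median -2.914). With the GC slope held and without the 20 libraries the median was 0.659, and 3 of 6 had an unadjusted p under 0.05 in edgeR.

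Some of the genes with the largest differences lost their call without the 20 libraries. The 15 genes with the largest positive differences, by the rule for named genes, included C1ql3, a secreted synaptic organizer (0.75, SE 0.18, adjusted p = 0.0011), the matricellular protein Ccn3 (0.70), Pter (0.62), the synaptotagmin Syt17 (0.37), the calcium-binding protein Cabp7 (0.35), the interleukin-1 receptor Il1r1 (0.33), the GABA-A receptor subunit Gabra5 (0.32), the pentraxin receptor Nptxr (0.32) and the G-protein subunit Gng4 (0.28). C1ql3 had medians of 3.95 and 3.38 CPM in high-ratio and low-ratio libraries and highest values of 93.2 and 14.8 CPM. These 9 genes lost their call without the 20 libraries, where C1ql3 stood at 0.33 (adjusted p = 0.15), Ccn3 at 0.27, Pter at 0.28, Syt17 at 0.12, Cabp7 at 0.009, Il1r1 at 0.24, Gabra5 at 0.16, Nptxr at 0.05 and Gng4 at 0.20. Cabp7 rested on replicate 29 of the males of generation 22, without which its least-squares difference fell from 0.10 to 0.05, as did C1ql2, a hippocampal marker (0.48, adjusted p = 0.0124), from 0.09 to 0.04.

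The other 6 of these 15 were called without the 20 libraries. They were the calcium-dependent membrane-binding protein Cpne6 (medians of 32.4 against 28.8 CPM, log2 difference 0.32, SE 0.065, adjusted p = 0.000195), the ubiquitin ligase March1 (21.5 against 18.1 CPM, 0.32, 0.000562), F2rl2 (2.61 against 2.25 CPM, 0.28, 0.00161), Nek10 (2.93 against 2.43 CPM, 0.27, 0.00293), Lrriq1 (6.72 against 5.51 CPM, 0.27, 0.0304) and Crym. Under both changes, 3 of the 15 were called: Cpne6 at 0.23 (adjusted p = 0.000366), Gng4 at 0.30 (0.0472) and Nek10 at 0.22 (0.0432).

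Of the 15 genes with the largest negative differences, 10 were called without the 20 libraries and 7 with the GC slope held too. The 7 were Adora2a, Ankk1, the endopeptidase Phex (medians of 10.9 against 13.8 CPM, -0.48, SE 0.13, adjusted p = 0.00418), the axon guidance receptor Robo3 (6.02 against 8.2 CPM, -0.45, SE 0.13, 0.00792), the fructose transporter Slc2a5, known from microglia (3.2 against 4.06 CPM, -0.38, SE 0.082, 0.00042), the cytochrome P450 Cyp2s1 (6.59 against 8.5 CPM, -0.30, SE 0.06, 0.000115) and the semaphorin Sema7a (58 against 69.7 CPM, -0.28, SE 0.056, 0.000178). Cited4 (-0.29), Tbc1d10c (-0.29) and Cyp2j12 (-0.27) were called without the 20 libraries and not with the GC slope. Prkcd, Klk6 (-0.38), the pacemaker channel Hcn4 (-0.34), Synpo2 (-0.32) and Mrvi1 (-0.30) lost their call without the 20. Without replicate 34 of the females of generation 21 the least-squares difference of Hcn4 went from -0.13 to -0.08.

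The called genes were ordered by the GC content of their transcripts. The GC slope compared above was computed from the genes tested, so this order in part restates its difference between the groups. Genes higher in high-ratio libraries had a median GC content of 41.9%, genes lower had 55.6%, and genes not called 48.7%. Across 9 bins of GC content, the median log2 difference ran from 0.07 in the bin with a median of 34.7% GC to -0.07 in the bin with a median of 61.2%. In the first of these bins 21.1% of genes were called higher and 0% lower, and in the second 0.549% higher and 28.6% lower. With the GC slope held and without the 20 libraries, the bin medians lay between -0.0119 and 0.0023. That slope was computed from the same genes, so holding it flattens this order by construction. Genes with the smallest p-values, chosen after their values were seen, lay on both sides: the GC-rich Dlgap3 (63.9% GC), a postsynaptic scaffold abundant in striatum, was lower (-0.21, SE 0.03, adjusted p = 1.59e-07), as were Sppl2b (59.7%, -0.13, 1.59e-07) and Agpat1 (59%, -0.11, 1.59e-07), while Prpf39 (37.6%), a splicing factor, was higher (0.12, SE 0.02, adjusted p = 2.37e-06), as were the deubiquitinase Usp34 (41.5%, 0.10, 2.74e-06) and Adnp (48.1%, 0.06, 1.47e-06).

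The ordering by GC content was steepest in generation 21. There the bin medians ran from 0.18 at 34.7% GC to -0.15 at 61.2%, against 0.02 to -0.02 in generation 22 and 0.02 to -0.01 in generation 23. Generation 21 by itself called 4454 genes (19.4%), while generations 22 and 23 called 4 each (0.0174% each) with 29 and 36 libraries a group, where 2211 and 1988 genes had an unadjusted p under 0.05. The 4 of generation 22 were Zcchc18 (0.11, adjusted p = 0.0358), Gm13339, Gm45062 and 1110028F11Rik, and the 4 of generation 23 were the serotonin receptor Htr4 (-0.46, adjusted p = 0.0386), Cmtm4 (0.13, 0.0386), Gm12715 and ENSMUSG00000050347, all named because they are few. The test of the difference between generations called 2161 genes (9.41%). Holding the GC slope as covariate, it called 22 (0.0958%), and without the 20 libraries 1250 (5.44%). Generation 21 with the GC slope held and without the libraries that stood apart called 80 (0.348%).

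**Figure D5:**
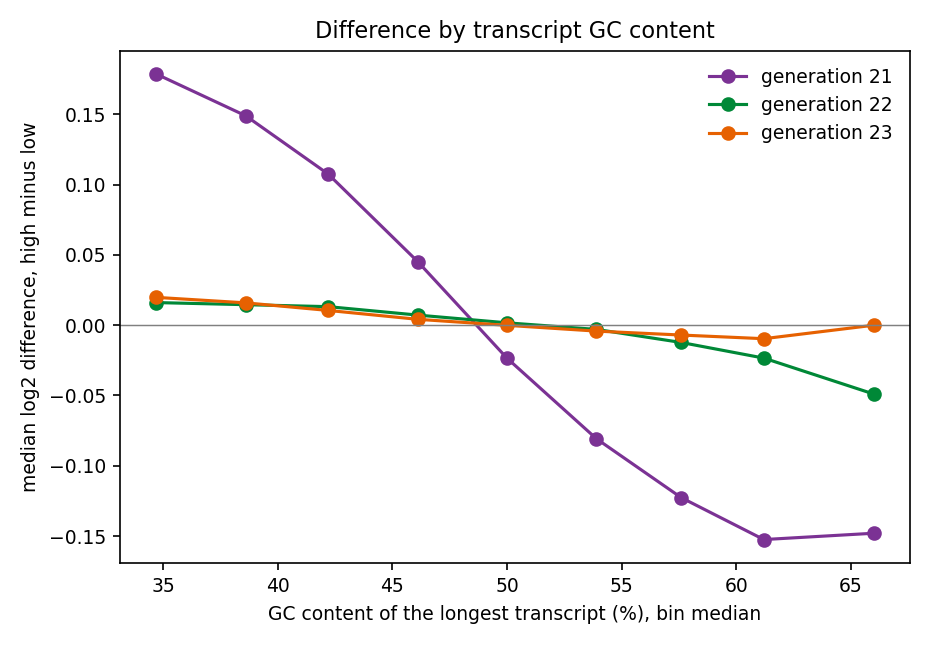
Median log2 difference, high-ratio minus low-ratio libraries, of genes in 9 bins of transcript GC content, plotted at the bin's median GC in percent, with 1 line per generation. Generation 21 runs from 0.18 in the lowest bin to about -0.15 in the highest bins, and generations 22 and 23 stay closer to 0.

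When the GC slope was held and the libraries that stood apart were left out, 89 genes were higher (0.388%) and 0.793% of genes tested were lower, and 69% of these called genes were also called in the same direction in the fit of all libraries. Their median GC content was 48.6% for the higher and 50.2% for the lower genes, in a fit that holds a GC slope computed from the same genes. Among the lowest adjusted p-values of this fit, chosen after they were seen, were Adora2a and Grik3, the calcium-binding protein Necab1 (-0.15, SE 0.022, adjusted p = 1.17e-06), Rgs7bp, which binds the R7 family of RGS proteins (-0.15, SE 0.026, 0.000207), and the G-protein-regulated Gprin3 (-0.14, SE 0.03, 0.00229). Necab1, Rgs7bp and Gprin3 were not called in the fit of all libraries (-0.07, -0.08 and -0.10, adjusted p = 0.388, 0.0713 and 0.245). The delta opioid receptor gene Oprd1 was lower in both (-0.15, adjusted p = 0.00514, and -0.12, 0.00543). Calb2, which encodes calretinin, was higher in both (0.84, SE 0.15, adjusted p = 2.69e-05, and 0.85, SE 0.14, 7.05e-05), with medians of 1.12 and 0.938 CPM and highest values of 31 and 5.21 CPM in high-ratio and low-ratio libraries.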

How the data were processed

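Striatal RNA, depleted of ribosomal RNA, was sequenced as 100 bp read pairs from a stranded kit, per the labels' protocols. The authors deposited expected counts (estimated counts that need not be whole) per Ensembl gene ID. 23.8% of the values are not whole. The aligner, counter, build and annotation behind the counts are not given in the sources used here, so coordinates of the counted genes are not printed. Those of the promoter windows rest on RefSeq starts on GRCm38.p6, and the gap between Drd2 and Ankk1 on GENCODE M21. Counts were rounded (0.005% of the total moved), and 46005 of 46517 IDs (98.9%) matched GENCODE M21 by ID for names, order and the GC content of the longest transcript. Genes passing filterByExpr (minimum count 10 over 6 sex by generation groups) were fitted with edgeR 4.0.16 under R 4.3.3 (quasi-likelihood, robust) on TMM factors from all 416 libraries, with generation as covariate and Benjamini-Hochberg adjustment over all genes. 22960 genes were tested and 23557 were not. CPM use the same factors. All tests are two-sided. The model was tested on simulated data that held no GC slope and no libraries that stand apart, so that test does not cover either. DESeq2 1.42.0 and limma 3.58.1 were alternatives.

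A library stood apart where its total was below 0.5 times the median one, or where its median correlation with the others lay over 4 scaled median absolute deviations under the middle of all libraries, and Xist was read against 100 CPM. The members, gene lists, markers and tests were chosen with earlier results of these data known. Named genes are, by rule, all measured members of the direct and indirect lists, the 15 called genes per direction with the largest difference (mean log2 CPM of at least 1, 1 sign in all generations), the called genes nearest the receptors, and up to 4 members of each other list with the smallest p. Not all of them are printed. Fits with the GC slope, alone or together with leaving libraries out, were added after the data were seen. Labels do not say which libraries share a cage, litter or preparation day, so p-values measure the spread between libraries.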

Additional observations from a re-analysis of the deposited data

Results flagged for a closer look

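The difference between high-ratio and low-ratio libraries depended on generation for 2161 genes, by edgeR's interaction test of group and generation. Each gene named here is listed because of the adjusted p of that test. Agpat1 had 0.00107 (log2 differences of -0.20, -0.10 and -0.03 in generations 21, 22 and 23), Sppl2b 0.00245, Dlgap3 0.00737 (-0.36, -0.18 and -0.08), Usp34 0.00965 and Prpf39 0.0103 (0.22, 0.10 and 0.04). Calb2 had 0.00539 (1.51, 0.91 and 0.05) and was the 1 of these genes still called with the GC slope as covariate (adjusted p = 0.000187). Sema7a had 0.0105 (-0.56, -0.17 and -0.07) and Cadm1 0.0135 (0.38, 0.12 and 0.08).

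Of 6 measured genes of the neurogenic niche and neuroblasts 3 were among them, against 9.41% of all genes tested: Sox11 with 0.0127 (0.33, -0.01 and -0.05), Sp8 with 0.0257 (0.65, -0.10 and -0.09) and doublecortin, Dcx, with 0.0415 (0.36, -0.02 and 0.08). The remaining members Dlx2, Mki67 and Top2a had 0.696, 0.156 and 0.306. Cabp7 had 0.0261, with its largest difference in generation 22 (0.08, 0.96 and 0.15), where 1 high-ratio library reached 104.9 CPM against a group median of 4.01. Ramp3 had 0.042 (-1.16, -0.11 and 0.02), with a highest low-ratio value in generation 21 of 112.4 CPM against a median of 1.9. The cause of these differences between generations was not tested.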

How the results depend on the processing

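The counts of 1726 higher and 1775 lower genes (7.52% and 7.73% of genes tested) stayed within 1.5-fold under RLE factors, DESeq2, limma voom, both filters, sex, total count, 8 marker scores, the ventral score or the spiny score as covariates, the third of libraries at each end, a ratio pseudocount of 10, groups set over all generations together, and without the libraries against Xist or the 20 that stood apart. Outside it lay the tenth at each end (687 higher, 2.99%, and 769 lower, 3.35%), the continuous ratio over all libraries (3779, 16.5%, and 4262, 18.6%), generations 22 and 23 alone (2 and 2 in each, 0.00871%), the GC slope (473, 2.06%, and 475, 2.07%), the GC slope without the 20 (89 higher, 0.388%, and 0.793% lower) and that fit in generation 21 alone (34, 0.148%, and 46, 0.2%). Fewer libraries enter the tenth and each generation alone, and the cause of the other changes was not tested. The interaction count of 2161 (9.41%) became 22 (0.0958%) with the GC slope and 1250 (5.44%) without the 20. The 20 genes of the middle libraries (0.0871%) became 0 with limma voom (2800 at an unadjusted p under 0.05, against 2886 in edgeR), 1 with the GC slope (0.00436%) and 0.815% of genes tested without the libraries that stood apart. All fits that use the GC slope were chosen after the data were seen.

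Of the genes named in the text, the following changed sign where they were called in either fit. With the GC slope, Hcn4 stood at 0.051, Prkcd at 0.36 and Ramp3 at 0.26. In generation 21 alone with the GC slope and without the 20, values were 0.032 for Gfap, 0.10 for Hbb-bt, -0.075 for Cabp7, -0.069 for Nptxr, 0.24 for Hcn4, 0.034 for Mrvi1, 0.02 for Synpo2, 0.77 for Prkcd and 0.43 for Ramp3. With the spiny score and without the 20, Cabp7 stood at -0.056, Ccn3 at -0.042, Nptxr at -0.068 and Syt17 at -0.02. With the ventral score, Prkcd stood at 0.15, Ramp3 at 0.18 and Hap1 at -0.001. Hap1 is itself a member of the ventral score, so holding that score draws the difference of Hap1 toward 0 by construction. Ramp3 also stood at 0.034 without the 20, at 0.13 with the GC slope too and at 0.023 in generation 23. Tmem119 (0.006) and Dcx (-0.017) changed sign in generation 22, and Mog (0.002) with the 8 marker scores. Mog is a member of the oligodendrocyte score among those 8, so its difference is drawn toward 0 by construction too. Every gene named in the text kept its side of the threshold and its direction under RLE factors and with sex as covariate, and 49 of them did with the GC slope and without the 20. No paired analysis was possible because the replicate numbers were given in accession order and pair no libraries. Depth was at least 20331737 counts per library, and genes near 1 CPM have wide errors.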
